A study of Mus musculus with 16 samples.

Results

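The 10 genes described here encode secreted or membrane-anchored proteins with a Ly6/uPAR (LU) domain. They are Slurp1, Slurp2, Ly6d, Ly6g6c, Lypd3, Lypd5, Pinlyp, Ly6a, Ly6c1 and Plaur, taken by symbol from the 55359 gene IDs of the count files. They were selected on family membership and on their read counts and group differences in these same libraries, so their levels and differences are given as a description. Where members are counted as called in the fit over all genes, the call describes that fit and supports nothing about them. Whole skin from the back was sequenced; the mice were male, 8 weeks old and, by their label, in telogen, when hair follicles rest. KO mice lacked both TNF receptors, Tnfrsf1a and Tnfrsf1b, and WT mice did not. Skin of each genotype was taken after a treatment labelled 3xUVB or without UVB, which gave KO UVB, KO control, WT UVB and WT control groups of 4 libraries each. The labels give neither the UVB dose and timing nor the background strain or the extent of the receptor deletions. Nor do they tie each library to its own mouse; p-values therefore speak of the variation among these libraries, which may be technical.

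The LU domain is a small, disulphide-rich fold shared with snake neurotoxins. Some LU proteins are secreted, as are the SLURP proteins, which bind cholinergic receptors on keratinocytes. Others are held on the cell surface by a glycosylphosphatidylinositol (GPI) lipid anchor. In stratified epithelia several members are made above the basal layer, where keratinocytes differentiate, and loss of SLURP1 in people causes Mal de Meleda, a thickening of the palms and soles. Ly6a (Sca-1) and Ly6c1 are surface proteins of endothelial and blood cells, among others, and Plaur is the urokinase receptor, which gathers plasmin formation at the cell surface.

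The libraries held 15644375 to 23200649 reads in genes, and 17531 genes passed the filter on low counts, all 10 members among them. Levels are read counts scaled to library size with TMM factors (CPM). Tnfrsf1a lay between 82.2 and 104.8 CPM in KO libraries and between 133 and 162 CPM in WT libraries, and Tnfrsf1b between 15.6 and 27.9 CPM in KO and between 33.6 and 69.6 CPM in WT, so reads over both genes remained in KO skin. As a check of the tissue label, the 16 differentiated keratinocyte markers measured, such as Krt10 and Flg, summed to 7782 CPM or more in every library. All 16 were also above 0 in every group, which at this depth is a weak check. Under the telogen label, anagen hair follicle markers (12 inner root sheath, hair shaft and matrix genes) summed to 652 to 1774 CPM in WT control libraries, while the sums were 7.47 to 13.3 CPM in KO UVB, 47.4 to 164 CPM in KO control and 9.06 to 103 CPM in WT UVB.

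**Figure D1:**
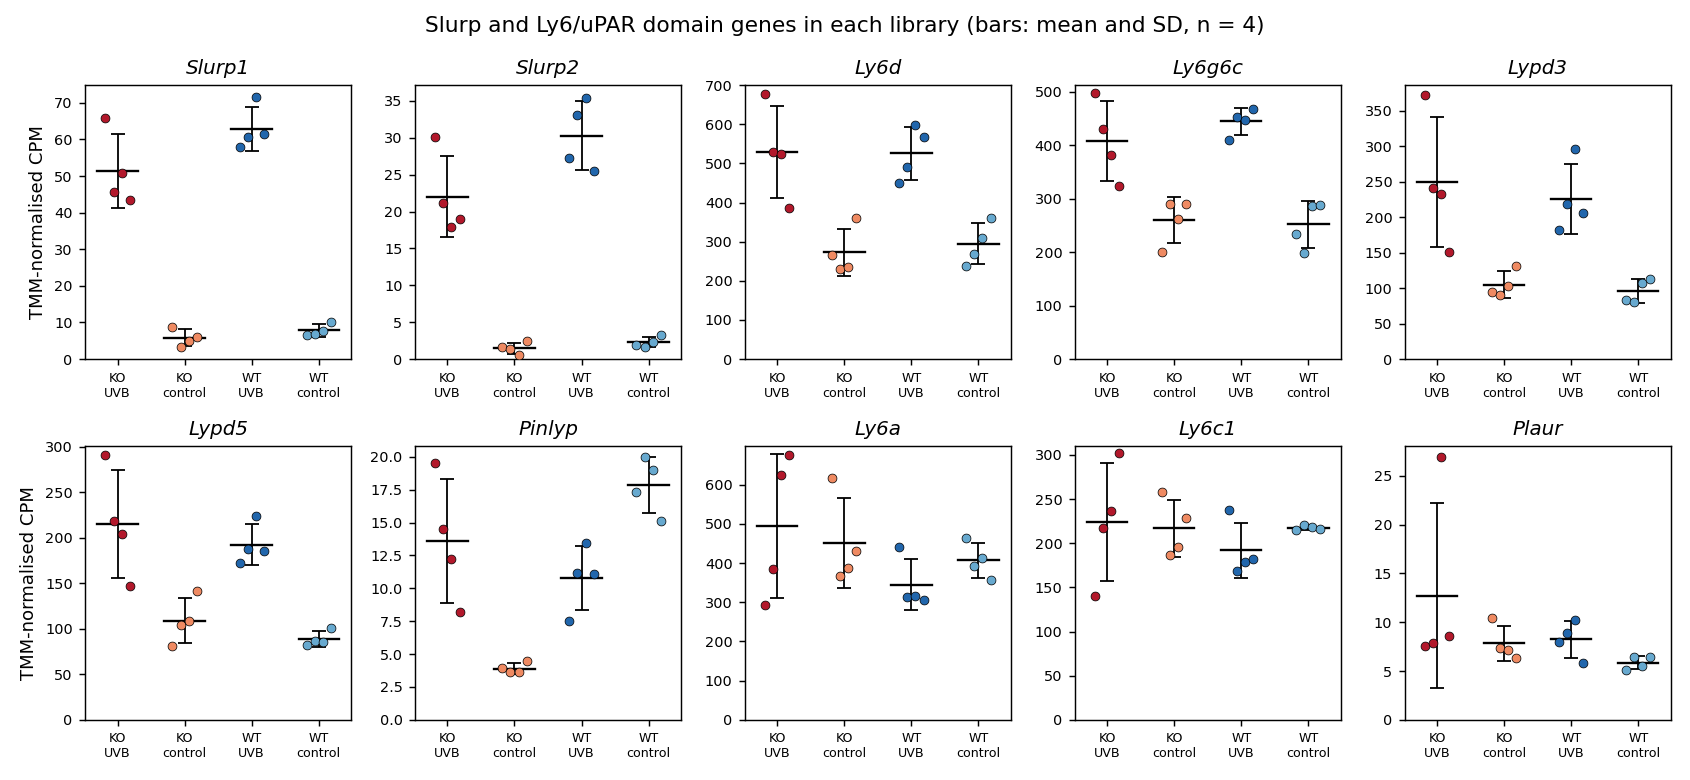
Level of each of the 10 genes in every library (TMM-normalised CPM, linear axes from 0), with the 4 groups side by side; points are libraries in the order of their numbers, bars are the mean and SD (n = 4). Slurp1 and Slurp2 of UVB skin sit far above control skin in both genotypes, Pinlyp is lowest in KO control, and Plaur has a single high library, KO UVB library 3 at 26.9 CPM.

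Slurp1 and Slurp2, which encode secreted proteins, differed most of the members between UVB and control skin. Slurp1, which encodes the ligand lost in Mal de Meleda, had 66.0, 45.7, 50.7 and 43.6 CPM in the KO UVB libraries, against 8.85, 3.22, 5.06 and 6.10 CPM in KO control. It had 58.0, 60.7, 71.5 and 61.5 CPM in WT UVB, against 6.44, 6.88, 7.73 and 10.2 CPM in WT control. In both genotypes the lowest UVB library lay several-fold above the highest control library. On the log2 scale the difference was 3.15 ± 0.24 in KO and 3.00 ± 0.23 in WT (SE of the fit).

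Slurp2, its neighbour on chromosome 15, encodes another secreted cholinergic ligand. It had 30.1, 21.2, 17.96 and 18.9 CPM in KO UVB, against 1.60, 1.31, 0.586 and 2.38 CPM in KO control. It had 27.3, 33.1, 35.4 and 25.4 CPM in WT UVB, against 1.88, 1.67, 2.32 and 3.32 CPM in WT control. Again the groups did not overlap. The log2 difference was 3.91 ± 0.30 in KO, or 14.98-fold, and 3.71 ± 0.29 in WT, or 13.1-fold. The control values rest on few reads, with 11 reads in the lowest library. Fewer cells of a type and less RNA per cell cannot be told apart in whole skin, for Slurp1 and Slurp2 and in all that follows. Of 16 differentiated keratinocyte markers, 14 rose in KO and 15 in WT by edgeR's quasi-likelihood test. Of all tested genes 17.2% were called higher in KO and 10.2% in WT. Dsg1a was called in neither genotype and Sbsn not in KO. The 16 summed to 19531 to 56783 CPM in KO UVB and 9125 to 14642 CPM in KO control. In WT they summed to 27844 to 36566 CPM after UVB and 7782 to 9921 CPM in control. The basal keratinocyte sum (8 genes) was 7300 to 16864 CPM in KO UVB and 5922 to 9737 CPM in KO control. In WT it was 9853 to 12622 CPM after UVB and 5655 to 9033 CPM in control. Of these 8, 2 rose and 2 fell in KO, and 2 rose and 1 fell in WT. The part of either marker set in the difference was not tested.

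Between genotypes, the SLURP genes had lower mean levels in KO, but the groups overlapped. Slurp1 averaged 51.5 ± 10.1 CPM in KO UVB and 62.9 ± 5.92 CPM in WT UVB, and 5.81 ± 2.35 CPM in KO control and 7.82 ± 1.69 CPM in WT control (SD, n = 4 each). Slurp2 averaged 22.0 ± 5.52 CPM in KO UVB and 30.3 ± 4.72 CPM in WT UVB, and 1.47 ± 0.744 CPM in KO control and 2.30 ± 0.731 CPM in WT control. The log2 differences of KO against WT were -0.29 ± 0.21 after UVB and -0.44 ± 0.24 without UVB for Slurp1. For Slurp2 they were -0.46 ± 0.25 after UVB and -0.66 ± 0.32 without UVB. By limma voom the value of Slurp2 without UVB was -1.23.

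Ly6d, Ly6g6c, Lypd3 and Lypd5, the members known from the surface of stratified epithelium, were all higher in UVB skin of both genotypes and at smaller folds than the SLURP genes. Ly6d (ThB) marks stratified epithelia and early B cells. It had 677, 529, 523 and 387 CPM in KO UVB, against 266, 231, 236 and 359 CPM in KO control. It had 449.8, 489.9, 598 and 566 CPM in WT UVB, against 238, 269, 309 and 360.1 CPM in WT control. The log2 difference was 0.96 ± 0.18 in KO and 0.84 ± 0.18 in WT, with no overlap in either genotype and a narrow gap in KO, where 387 CPM stood next to 359 CPM.

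Lypd3 encodes C4.4A, a structural relative of the urokinase receptor found on suprabasal keratinocytes. It had 372, 241, 232 and 150.2 CPM in KO UVB, against 94.0, 89.7, 103 and 132 CPM in KO control. It had 182, 218, 296 and 206 CPM in WT UVB, against 83.5, 80.5, 107 and 113 CPM in WT control. UVB against control gave a log2 difference of 1.25 ± 0.23 in KO and 1.23 ± 0.23 in WT, and the groups did not overlap. Without KO UVB library 1, the highest, it was 0.997 in KO.

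Lypd5 encodes haldisin, which in human skin marks the granular layer. It had 290.4, 218, 204 and 147 CPM in KO UVB, against 81.3, 104, 109 and 142 CPM in KO control. In WT it had 172, 188, 224 and 185 CPM after UVB, against 82.2, 86.1, 85.6 and 101 CPM in control. Its log2 difference was 0.98 ± 0.18 in KO and 1.12 ± 0.18 in WT. In KO the gap between the groups was narrow, with 147 CPM in the lowest UVB library and 142 CPM in the highest control library.

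Ly6g6c, a GPI-anchored member from the class III region of the major histocompatibility complex, had the smallest UVB difference of these surface genes. It had 498, 430.3, 382 and 323 CPM in KO UVB, against 199.8, 290.1, 262 and 290.3 CPM in KO control. It had 409.9, 453, 447 and 469 CPM in WT UVB, against 235, 198, 287 and 288 CPM in WT control. Between UVB and control skin the log2 difference was 0.65 ± 0.15 in KO and 0.82 ± 0.15 in WT, without overlap.

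The KO UVB libraries were more spread than the WT UVB libraries in these genes, and they were spread in a shared order. KO UVB library 1 was the highest of its group in 7 of the 10 members and the lowest in the other 3. KO UVB library 4 was the lowest in 6 members, and the highest in Ly6a and Ly6c1. The differentiated keratinocyte sum ran in the same order from library 1 down to library 4, with 56783, 34378, 25688 and 19531 CPM in KO UVB libraries 1 to 4. The basal keratinocyte sum (8 genes) had that order too, at 16864, 13003, 10544 and 7300 CPM. Wound keratinocyte markers (6 genes, Krt6a among them) summed to 1221 CPM in KO UVB library 4 and to 5395 to 5984 CPM in the other 3. Their part in the spread was not tested.

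**Figure D2:**
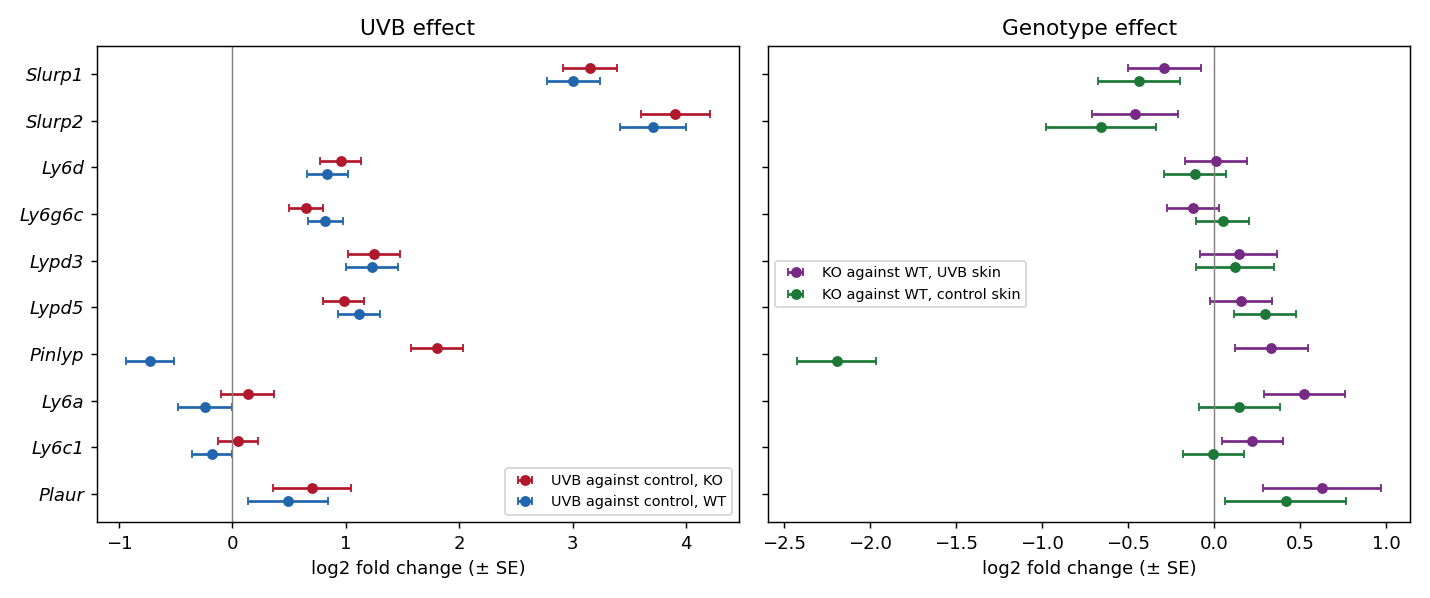
Log2 fold change of each of the 10 genes with its SE, for UVB against control in KO and WT (left) and for KO against WT in UVB and control skin (right). Most genes have near-equal UVB differences in the genotypes; Pinlyp lies at 1.80 in KO and at -0.73 in WT.

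Counted over all 10 members, 7 were higher and 0 lower in KO UVB against control at an adjusted p under 0.05, where 32.3% of all tested genes were called and 17.2% were called higher. In WT 6 were higher and 1 lower, where 18.8% were called, 10.2% higher and 8.6% lower. The groups did not overlap in 7 members in either genotype, where 25.1% of tested genes had no overlap in KO and 28.2% in WT. The median log2 difference of the members was 0.97 in KO and 0.83 in WT, beside -0.02 and -0.03 over all genes. The choice of members used these contrasts, so nothing is read from the counts. Each UVB comparison shares its control libraries with the comparison of KO against WT without UVB, and its UVB libraries with that after UVB.

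The promoters of Lypd3, Lypd5 and Ly6g6c are shown because these genes were higher together in UVB skin, and that of Pinlyp because its UVB difference changed sign between the genotypes. RefSeq windows (GRCm38.p6) were found for 6 of the 10 members. The 250 bases before each annotated start are printed 5′ to 3′ on the gene's strand, from chr7:24636320-24636569 (plus) for Lypd3, chr7:24348946-24349195 (plus) for Lypd5, chr17:35067075-35067324 (plus) for Ly6g6c and chr7:24546006-24546255 (minus) for Pinlyp. Capitals mark matches on either strand to the AP-1 motif TGANTCA, the TATA box TATAAA, the Klf and Sp core CACCC, the CCAAT box and the Grhl motif AACNGGTT.
Lypd3: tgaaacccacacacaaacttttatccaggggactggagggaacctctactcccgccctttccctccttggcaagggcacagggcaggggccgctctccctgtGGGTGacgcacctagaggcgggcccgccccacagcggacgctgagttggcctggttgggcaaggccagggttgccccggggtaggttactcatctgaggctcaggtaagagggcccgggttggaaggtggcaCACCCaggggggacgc
Lypd5: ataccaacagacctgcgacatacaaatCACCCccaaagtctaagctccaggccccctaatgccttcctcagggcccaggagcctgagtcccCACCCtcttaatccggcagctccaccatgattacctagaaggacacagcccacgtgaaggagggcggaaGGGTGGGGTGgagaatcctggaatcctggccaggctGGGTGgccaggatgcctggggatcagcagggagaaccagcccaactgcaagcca
Ly6g6c: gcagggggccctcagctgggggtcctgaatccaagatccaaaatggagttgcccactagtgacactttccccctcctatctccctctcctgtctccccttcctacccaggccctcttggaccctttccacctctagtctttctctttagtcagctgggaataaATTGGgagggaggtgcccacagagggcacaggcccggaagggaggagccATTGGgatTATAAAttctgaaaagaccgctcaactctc
Pinlyp: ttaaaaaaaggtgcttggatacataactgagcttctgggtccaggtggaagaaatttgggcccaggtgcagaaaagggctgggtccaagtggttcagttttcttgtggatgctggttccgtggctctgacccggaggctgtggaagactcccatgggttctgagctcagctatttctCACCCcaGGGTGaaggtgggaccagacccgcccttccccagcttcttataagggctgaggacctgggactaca

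Lypd5 held 5 CACCC matches 54 to 223 bases before its start, and those at 90 and 85 bases adjoin. Lypd3 held 2, at 148 and 16 bases, and Pinlyp held 2, at 73 and 66 bases. CACCC occurs in 52% of the 32851 windows of the table, so a match is common. Ly6g6c had a TATAAA 30 bases before its start, a motif in 12.4% of windows, and CCAAT matches at 87 and 38 bases, a motif in 33.8%. Of the printed windows none held the AP-1 letters, found in 6.75% of windows, or the Grhl letters, found in 1.79%. The Plaur window had an AP-1 match, TGACTCA, 69 bases before its start. A match is a string of letters and not a shown binding site.

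Pinlyp, named for its likeness to phospholipase A2 inhibitors, differed from the other members in direction. It had 19.5, 14.5, 12.2 and 8.20 CPM in KO UVB, against 3.94, 3.60, 3.62 and 4.44 CPM in KO control. It had 7.52, 11.2, 13.4 and 11.1 CPM in WT UVB, against 17.3, 20.02, 19.0 and 15.1 CPM in WT control. UVB skin was therefore higher than control in KO and lower than control in WT, without overlap in either. The log2 difference was 1.80 ± 0.23 in KO and -0.73 ± 0.21 in WT.

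The control groups carried the contrast between the genotypes. Pinlyp averaged 3.90 ± 0.390 CPM in KO control and 17.9 ± 2.14 CPM in WT control (SD, n = 4 each), a log2 difference of -2.19 ± 0.23, or 4.58-fold lower in KO. It averaged 13.6 ± 4.72 CPM in KO UVB and 10.8 ± 2.44 CPM in WT UVB, which overlapped, with a log2 difference of 0.33 ± 0.21. The UVB difference in KO minus that in WT was 2.53 ± 0.31 on the log2 scale. In that contrast 4 genes were called, Pinlyp, Hba-a2, Angptl8 and Tnik, or 0.0228% of those tested, and 3 of them, or 0.0171%, had a positive difference. The count was 110 without KO UVB library 4, 30 without KO control library 1, 7 without WT control library 3 or KO UVB library 1 and 2 without KO control library 4, and it was 210 by DESeq2 and 459 by limma voom. Pinlyp was chosen with this contrast known, so nothing is read from its call. These comparisons share the WT control and KO control libraries. The UVB difference in WT lost its call when any library of WT control but library 4, or any of WT UVB but library 3, was left out, at log2 values from -0.73 to -0.56. The call in KO held in all 26 alternatives.

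Marker sums are given beside Pinlyp, and each moved with it in some comparisons and against it in others. Between the control groups the anagen hair follicle sum was lower in KO, as Pinlyp was, at 164, 154, 163 and 47.4 CPM in KO control libraries 1 to 4, against 1528, 1774, 652 and 876 CPM in WT control. By edgeR's quasi-likelihood test 9 of the 12 were lower in KO control than in WT control, where 1.28% of all tested genes were called lower. After UVB 12 of 12 were lower in each genotype, where 15.1% were called lower in KO and 8.6% in WT. Within the control groups, WT control library 2 was the highest of its group in both Pinlyp and the anagen sum. Elsewhere the orders differed. KO control library 4 had the highest Pinlyp and the lowest anagen sum of its group. WT control library 3 had the lowest anagen sum but not the lowest Pinlyp. In KO, Pinlyp was higher after UVB while the anagen sum was lower, at 7.47 to 13.3 CPM in KO UVB, and the differentiated keratinocyte sum was higher. In WT, Pinlyp and the anagen sum were both lower after UVB. The differentiated keratinocyte sum was higher there, at 27844 to 36566 CPM in WT UVB, against 7782 to 9921 CPM in WT control. Within KO UVB and within WT UVB the Pinlyp levels had the library order of the differentiated keratinocyte sum. In WT control, Pinlyp was highest in library 2, where that sum was lowest, and lowest in library 4, where it was highest. In KO control, library 4 was the highest in both, and the lowest libraries differed. The part of either cell population in the Pinlyp differences was not tested.

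**Figure D3:**
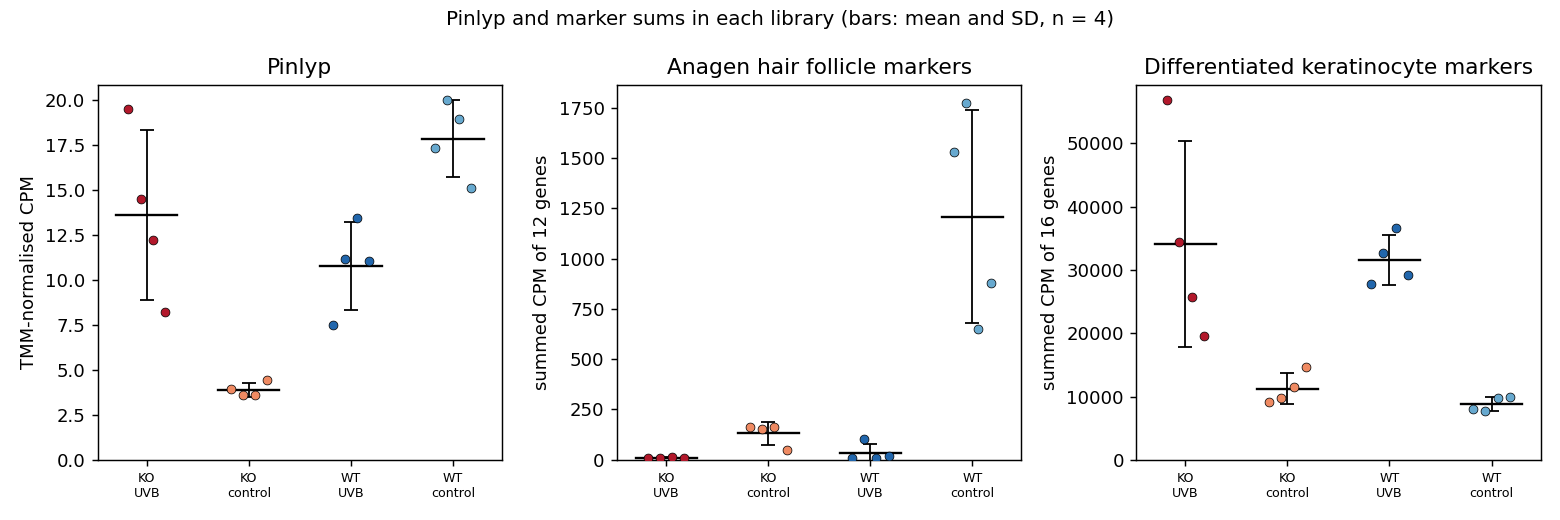
Pinlyp (CPM), the summed CPM of 12 anagen hair follicle markers and of 16 differentiated keratinocyte markers in each library, with group mean and SD (n = 4). Pinlyp averages 3.90 CPM in KO control and 17.9 CPM in WT control; the anagen sum is at 652 CPM or more in WT control and at 164 CPM or less in every other group.

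Ly6a and Ly6c1, the members expressed on endothelial and blood cells, among others, had overlapping levels in all comparisons. Ly6a had 293, 386, 625 and 675 CPM in KO UVB, against 617, 368, 387 and 430.1 CPM in KO control. It had 441, 313, 316 and 307 CPM in WT UVB, against 465, 392, 413 and 358 CPM in WT control. The log2 difference of UVB against control was 0.14 ± 0.23 in KO and -0.24 ± 0.23 in WT, and that of KO against WT was 0.52 ± 0.23 after UVB and 0.15 ± 0.23 without UVB.

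Ly6c1 had 140.3, 218, 236 and 302 CPM in KO UVB, against 258, 187, 195 and 228 CPM in KO control. It had 238, 169, 179 and 183 CPM in WT UVB, against 215, 220.4, 219 and 217 CPM in WT control. The WT control libraries were close to equal, and the KO UVB libraries covered all other values of the gene. The log2 difference of UVB against control was 0.05 ± 0.18 in KO and -0.18 ± 0.18 in WT. Both genes ran against the epidermal members within KO UVB, lowest in library 1 and highest in library 4. Endothelial markers (13 genes, Pecam1 and Cdh5 among them) summed to 778 to 993 CPM in KO UVB, 744 to 887 CPM in KO control, 660 to 844 CPM in WT UVB and 804 to 942 CPM in WT control. In KO UVB libraries 1 to 4 the endothelial sums were 778, 993, 805 and 887 CPM. Monocyte and macrophage markers (12 genes) summed to 1844, 3308, 4583 and 3912 CPM in the same libraries. These markers summed to 1973 to 3447 CPM in KO control, 1701 to 2500 CPM in WT UVB and 2179 to 3831 CPM in WT control. The part of either cell type was not tested. Ly6a and Ly6c1 have close relatives in the mouse genome, such as Ly6i and Ly6c2, so reads could be split or lost between them, and their values carry that uncertainty.

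Plaur was the least abundant member by length in WT skin and in KO UVB. It had 7.51, 7.87, 26.9 and 8.56 CPM in KO UVB, against 10.4, 7.33, 7.19 and 6.38 CPM in KO control. It had 7.98, 8.92, 10.3 and 5.78 CPM in WT UVB, against 5.10, 6.39, 5.55 and 6.45 CPM in WT control. The groups overlapped in every comparison, and KO UVB library 3 stood apart at 26.9 CPM. The log2 difference was 0.70 ± 0.35 in KO and 0.49 ± 0.35 in WT; without KO UVB library 3 it was 0.04 in KO. Neutrophil markers (10 genes, S100a8 among them) summed to 371 CPM in that library, to 39.1 to 55.1 CPM in the other KO UVB libraries, to 11.3 to 32.9 CPM in KO control, to 20.2 to 51.5 CPM in WT UVB and to 13.5 to 17.7 CPM in WT control. 1 of the 10, Ngp, was at 0 throughout KO control. Their part in the Plaur level was not tested.

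Between the genotypes, 0 of the 10 members were called in KO UVB against WT UVB by edgeR's quasi-likelihood test, where 0.856% of tested genes were called and 8.16% had groups that did not overlap; 1 had an unadjusted p under 0.05, and DESeq2 and limma voom each called 0. In KO control against WT control 1 member was called, Pinlyp, which was lower, where 1.69% of genes were called and 1.28% were called lower. The groups overlapped in the other 9, where 7.68% of genes had no overlap. After UVB the log2 difference of KO against WT was 0.01 ± 0.18 for Ly6d, -0.12 ± 0.15 for Ly6g6c, 0.14 ± 0.23 for Lypd3 and 0.16 ± 0.18 for Lypd5. Without UVB it was -0.11 ± 0.18 for Ly6d, 0.05 ± 0.15 for Ly6g6c, 0.12 ± 0.23 for Lypd3 and 0.30 ± 0.18 for Lypd5. Such values do not show that the levels were equal. Without KO UVB library 1, Lypd3 was at -0.13 and Lypd5 at -0.03 after UVB, on the other side of 0. Plaur was at 0.63 ± 0.34 after UVB and at 0.42 ± 0.35 without UVB, and at -0.05 after UVB without KO UVB library 3. Ly6c1 was at 0.22 ± 0.18 after UVB and at -0.00 ± 0.18 without UVB.

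Levels can be set side by side between genes only per length, here as CPM per kilobase of annotated exons. Ly6d led in KO UVB at 711 ± 160, followed by Ly6a at 411 ± 153 and Ly6g6c at 299 ± 54.2, and neighbours in this order overlapped. In WT UVB Ly6d led at 707 ± 91.4, clear of Ly6g6c at 325 ± 18.2, which overlapped Ly6a at 285.5 ± 54.0. In control skin Ly6a and Ly6d overlapped, at 374 ± 94.6 and 367 ± 80.2 in KO control and at 338 ± 37.2 and 396 ± 70.7 in WT control. Lypd3, Ly6c1 and Lypd5 held the middle of the order in all 4 groups, between 39.6 and 151.

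The SLURP genes changed rank with UVB. Slurp2 lay at 40.4 ± 10.1 in KO UVB, against 2.70 ± 1.36 in KO control, and at 55.6 ± 8.67 in WT UVB, against 4.21 ± 1.34 in WT control. In UVB skin it was the seventh of the 10 in both genotypes, above Slurp1 at 17.6 ± 3.45 in KO and 21.5 ± 2.02 in WT, without overlap. In control skin Slurp2, Slurp1 and Plaur were the last 3, and neighbours among these 3 overlapped. Pinlyp was the ninth in UVB skin, at 16.1 ± 5.60 in KO and 12.8 ± 2.89 in WT, and the seventh in control skin, at 4.63 ± 0.463 in KO and 21.2 ± 2.54 in WT. The exon length of Slurp1 counts a long annotated transcript, which lowers its value per length.

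The genes whose log2 CPM followed each member most closely over the 16 libraries are given by their r, which is a description over libraries that share their groups, so r of the deviations from the group means stands beside it. Slurp1 was followed most closely by Lce1k, a late cornified envelope gene (r = 0.991, deviations 0.920), Dhrs1 (0.987 and 0.895) and Rrm2, a ribonucleotide reductase subunit (0.981 and 0.730). Slurp2 was followed by Aaas (0.982 and 0.620), Lce1k (0.980 and 0.731) and Slurp1 (0.979 and 0.501). Ly6d went with S100a14 (0.984 and 0.928), Nxt1 (0.976 and 0.917) and Crb3 (0.975 and 0.901). Ly6g6c went with Cdsn, which encodes corneodesmosin of the cornified layer (0.976 and 0.946), Atp6v1c2 (0.970 and 0.872) and Ubqln1 (0.969 and 0.883). Lypd3 went with Grhl3, a transcription factor of epidermal differentiation (0.984 and 0.951), Mpzl3 (0.983 and 0.964) and Cltb (0.981 and 0.964). Lypd5 went with Lgalsl (0.982 and 0.893), Epn3 (0.981 and 0.944) and Nccrp1 (0.981 and 0.939).

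Pinlyp was nearest to Capn12 (0.899), Padi1 (0.890) and Mthfd1l (0.890), with deviations of only 0.538, 0.487 and 0.380. Ly6a was nearest to Aida (0.949 and 0.943), Calml4 (0.918 and 0.902) and its neighbour Ly6e (0.917 and 0.923). Ly6c1 was nearest to Pea15a (0.924 and 0.919), Medag (0.913 and 0.926) and Stard3nl (0.890 and 0.912). Plaur was nearest to Odc1 (0.899 and 0.897), Adam8 (0.897 and 0.940) and Myd88 (0.881 and 0.917). Among the members, the deviations of Lypd3 and Lypd5 had r = 0.898, those of Ly6a and Ly6c1 0.897, and those of Lypd5 and Ly6a -0.773.

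Slurp1, Slurp2, Ly6d, Ly6a and Ly6c1 lie in one run of LU genes on chromosome 15, from Psca to Gpihbp1, with 50 annotated genes of which 18 were tested. In KO, Slurp1, Slurp2 and Ly6d were called higher and Lynx1, which lies between Slurp2 and Ly6d, was called lower. Slurp1, Slurp2 and Ly6d are members chosen with this contrast known, so nothing is read from their calls. The 6 tested genes from Gm39556 to Ly6c2 were called in neither genotype. By edgeR's quasi-likelihood test, 4 of the 13 tested genes that are no members were higher in KO UVB against control and 1, Lynx1, was lower. In WT 3 were higher and 1 was lower, D730001G18Rik, an unnamed transcript next to Ly6d at -1.64 ± 0.23 (adjusted p = 0.000177). Of all genes tested, 32.3% were called in KO and 18.8% in WT. Lypd5, Plaur, Pinlyp and Lypd3 lie on chromosome 7 among 17 genes. Of the 10 tested genes there that are no members, 0 were higher in either genotype; Cadm4 and Phldb3 were lower in KO and Cadm4 in WT. Their median log2 difference was 0.05 in KO and -0.05 in WT.

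**Figure D4:**
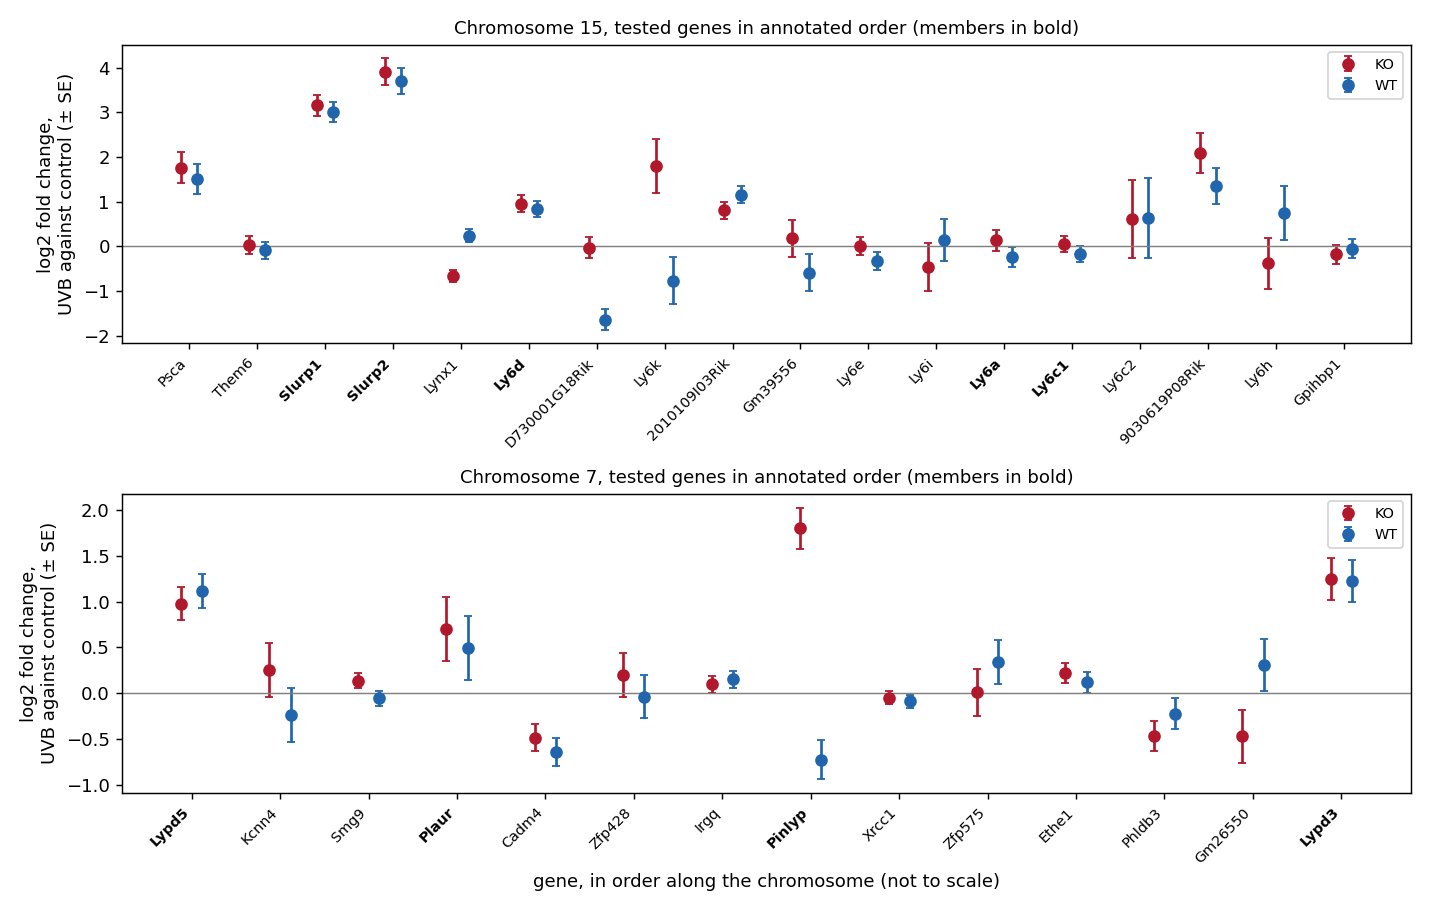
Log2 fold change of UVB against control with its SE in KO and WT for the tested genes along the LU gene runs of chromosomes 15 and 7, in annotated order and not to scale, members in bold. High values at Slurp1 and Slurp2 stand beside Lynx1 at -0.66 in KO and 0.23 in WT, and on chromosome 7 Lypd5 and Lypd3 lie between 0.98 and 1.25 among other genes with a median of 0.05 in KO and -0.05 in WT. 2010109I03Rik is Ly6m.

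The wider LU family had no common direction. Of 49 other family genes listed, 46 were found in the files and 17 passed the filter on low counts. In KO UVB against control 3 rose (Psca, Ly6k and Ly6m) and 5 fell (Lynx1, Ly6g5b, Cd59b, Lypd1 and Cd59a), with a median of -0.34 beside -0.02 for all genes and 32.3% of all genes called. This count of 8 was 4 without KO control library 3 or KO UVB library 1, 5 without KO UVB library 3 and 3 in a fit of only the groups compared. Several of these genes rest on few reads. Over all 16 libraries Ly6k held 115 reads, Cd59b 273, Lypd1 394, Psca 395 and Ly6g5b 538. In WT, where 18.8% of all genes were called, 2 rose (Psca and Ly6m) and 2 fell (Cd59a and Ly6g6d), with a median of -0.05 beside -0.03. All adjusted p of this and the next 5 paragraphs come from edgeR's quasi-likelihood test over all genes (n = 4 libraries a group).

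Ly6m, a family gene of the chromosome 15 run, averaged 33.2 ± 10.2 CPM in KO UVB and 19.1 ± 4.11 CPM in KO control, a log2 change of 0.80 ± 0.19 (adjusted p = 0.00527). It averaged 37.8 ± 4.63 CPM in WT UVB and 17.02 ± 2.56 CPM in WT control, a change of 1.15 ± 0.19 (adjusted p = 0.000797). Psca, the prostate stem cell antigen, rose at very low levels, to 1.93 ± 0.522 CPM in KO UVB, against 0.579 ± 0.327 CPM in KO control (log2 1.76 ± 0.34, adjusted p = 0.00146), and to 1.74 ± 0.392 CPM in WT UVB, against 0.606 ± 0.199 CPM in WT control (1.505 ± 0.34, adjusted p = 0.00624).

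Lynx1, a GPI-anchored modulator of nicotinic receptors that lies between Slurp2 and Ly6d, fell in KO to 50.1 ± 5.60 CPM after UVB, against 79.4 ± 19.7 CPM in control (log2 -0.66 ± 0.14, adjusted p = 0.00257). In WT it had 64.3 ± 3.86 CPM after UVB and 54.7 ± 5.82 CPM in control (0.23 ± 0.14, adjusted p = 0.257). The difference between these 2 changes did not pass the threshold (-0.90 ± 0.20, adjusted p = 0.109). Cd59a, which blocks the complement attack complex, fell in KO (-0.39 ± 0.14, adjusted p = 0.0466) and in WT (-0.59 ± 0.14, adjusted p = 0.00988).

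Ly6g6d, next to Ly6g6c on chromosome 17, is named after its values were seen. It averaged 0.898 CPM in KO UVB, 1.15 CPM in KO control, 0.676 CPM in WT UVB and 4.62 ± 1.88 CPM in WT control. It fell in WT UVB against control (-2.75 ± 0.32, adjusted p = 4.82e-05) and was lower in KO control than in WT control (-1.99 ± 0.30, adjusted p = 0.00283), the only family gene of the 17 called there. It was highest in WT control, the group with the highest anagen sums and the highest Pinlyp mean. In KO UVB, Pinlyp still averaged 13.6 ± 4.72 CPM, while the anagen sum was 7.47 to 13.3 CPM. The abundant Ly6e had 497 ± 156 CPM in KO UVB and 497 ± 91.7 CPM in KO control, and 385 ± 63.6 CPM in WT UVB and 485 ± 71.9 CPM in WT control, with no call (adjusted p = 0.998 in KO and 0.264 in WT). No gene of the 17 was called in KO UVB against WT UVB, where 3 had an unadjusted p under 0.05 and DESeq2 called 1 and limma voom 2.

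**Figure D5:**
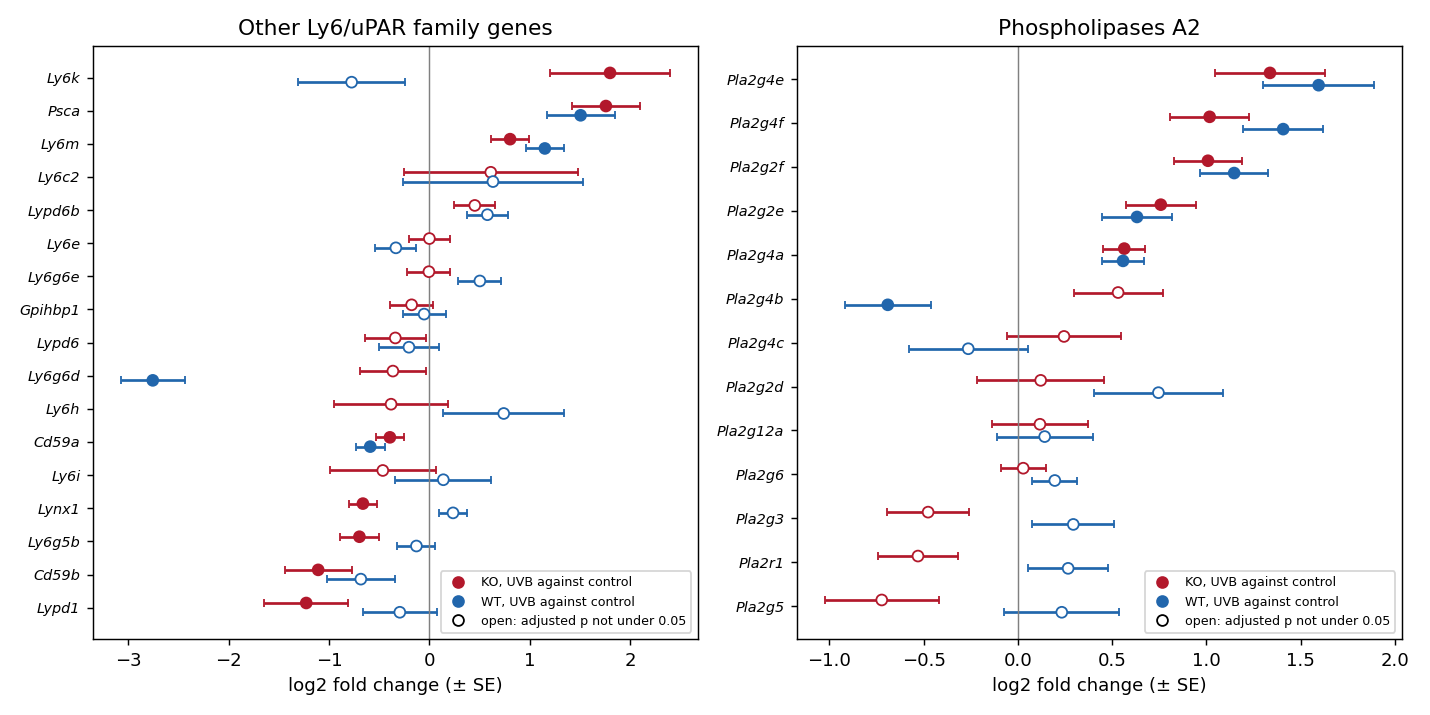
Log2 fold change of UVB against control with its SE for the tested other LU family genes (left) and phospholipases A2 (right) in KO and WT; filled points have an adjusted p under 0.05. Family genes spread to both sides of 0, and the called phospholipases lie above 0 but for Pla2g4b in WT at -0.69; Pla2g4d, with 2 reads in all of WT control, is not drawn.

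Among 26 cholinergic receptor and enzyme genes, the pathway on which SLURP proteins act, 15 were tested. In KO UVB against control 6 fell and 0 rose, where 15.1% of all genes were called lower, with a median of -0.46 beside -0.02 for all genes. A fit of only the groups compared called 3. Ache, which breaks down acetylcholine, fell to 13.5 ± 2.66 CPM in KO UVB, against 31.5 ± 3.49 CPM in KO control (log2 -1.22 ± 0.13, adjusted p = 2.92e-05). Chrnb1 (-0.64 ± 0.18, adjusted p = 0.0121) and Bche (-0.46 ± 0.17, adjusted p = 0.0443) fell too, as did Chrnb4, Chrnd and Chrne, which are named after their values were seen. In WT 0 of the 15 were called, 2 had an unadjusted p under 0.05, DESeq2 called 0 and limma voom 1.

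Ache had 22.2 ± 2.94 CPM in WT UVB and 25.8 ± 1.95 CPM in WT control (log2 -0.21 ± 0.13, adjusted p = 0.275). It was lower in KO UVB than in WT UVB (-0.72 ± 0.13, adjusted p = 0.0209), and the difference between the UVB changes did not pass the threshold (-1.01 ± 0.19, adjusted p = 0.0824). The call in KO UVB against WT UVB was lost without KO UVB library 2 or 3 or WT UVB library 1 or 2. Chrna7, the receptor subunit tied to SLURP1 in human keratinocytes, stayed under 1 CPM in all libraries and was not called in KO (-0.46 ± 0.47, adjusted p = 0.489) or WT (0.25 ± 0.42, adjusted p = 0.712). Chrna9 did not pass the filter on low counts. Several of the fallen genes belong to the muscle endplate. Chrna1, of the same list and named after its values were seen, was not called in KO (-0.33 ± 0.17, adjusted p = 0.138). Skeletal muscle markers (5 genes) summed to 6805 to 12935 CPM in KO UVB and 15795 to 26397 CPM in KO control, with 4 of 5 lower. They summed to 7742 to 12392 CPM in WT UVB and 8819 to 17635 CPM in WT control, with 1 of 5 lower. Of all genes, 15.1% were called lower in KO and 8.6% in WT. The part of muscle was not tested.

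Of 24 genes of plasminogen activation and Plaur binding, 22 were tested; 5 were called in KO, where 32.3% of all genes were, and 2 in WT, where 18.8% were. DESeq2 called 8 and limma voom 10 in KO. In KO UVB against control 4 rose and 1 fell: Serpine2, an inhibitor of plasminogen activators (0.35 ± 0.11, adjusted p = 0.026), Thbd, which encodes thrombomodulin (0.43 ± 0.13, adjusted p = 0.0204), Fpr1 and Fpr2, formyl peptide receptors of neutrophils named after their values were seen (2.39 ± 0.82 and 1.57 ± 0.57), and Itgav, which fell (-0.29 ± 0.09, adjusted p = 0.0226). In WT Serpine2 (0.37 ± 0.11, adjusted p = 0.0328) and Plgrkt, a plasminogen receptor (0.28 ± 0.07, adjusted p = 0.0143), rose. Fpr1 ranged from 0.410 to 5.26 CPM and Fpr2 from 1.503 to 9.10 CPM over the KO UVB libraries. Neutrophil markers moved with them: 7 of the 7 tested rose in KO, where 17.2% of all genes were called higher. The sum of all 10 listed was 371 CPM in KO UVB library 3 and 39.1 to 55.1 CPM in the other 3. The part of neutrophils was not tested. Leaving out any KO library moved the count in KO, to 1 without KO control library 2 or 3 or KO UVB library 2, to 2 or 3 without KO UVB library 3 or KO control library 4, and to 8 or 9 without KO control library 1 or KO UVB library 1 or 4. The count in WT was 0 without library 2 of WT control, and it was 1 without library 1 of WT control or without library 1 or 3 of WT UVB. The ligand Plau was not called in KO (-0.02 ± 0.22, adjusted p = 0.962) or WT (-0.28 ± 0.22, adjusted p = 0.398).

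Of 10 listed partners of C4.4A, 8 were tested and 2 were called in each genotype. Of all genes 32.3% were called in KO and 18.8% in WT, so nothing is read from this count. Lgals3 (galectin-3) rose to 600.3 ± 82.1 CPM in KO UVB, against 378 ± 66.97 CPM in KO control (0.67 ± 0.13, adjusted p = 0.00144), and to 615 ± 39.8 CPM in WT UVB, against 376.5 ± 33.9 CPM in WT control (0.71 ± 0.13, adjusted p = 0.00149). Lama1, a laminin chain, fell in KO (-3.07 ± 0.42, adjusted p = 0.000147) and in WT (-2.66 ± 0.40, adjusted p = 0.00038).

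Of 19 phospholipase A2 genes, listed because Pinlyp is named for their inhibitors, 14 were tested; 6 rose in KO and 6 rose and 1 fell in WT, with medians of 0.39 and 0.43 beside -0.02 and -0.03 for all genes. Of all genes 32.3% were called in KO and 18.8% in WT. The 7 called in WT were 4 when library 2 or 4 of WT control, or library 4 of WT UVB, was left out. Pla2g2f, the secreted enzyme of suprabasal epidermis, rose to 500 ± 134 CPM in KO UVB, against 249 ± 44.7 CPM in KO control (1.01 ± 0.18, adjusted p = 0.000802), and to 498 ± 76.5 CPM in WT UVB, against 225 ± 28.9 CPM in WT control (1.15 ± 0.18, adjusted p = 0.000448). The cytosolic Pla2g4e rose in KO (1.34 ± 0.29, adjusted p = 0.00314) and WT (1.59 ± 0.29, adjusted p = 0.00172), and Pla2g4f in KO (1.02 ± 0.21, adjusted p = 0.00229) and WT (1.41 ± 0.21, adjusted p = 0.000384). Pla2g4a, which frees arachidonic acid, rose by 0.56 ± 0.11 in both (adjusted p = 0.00175 in KO and 0.00316 in WT). Pla2g4b, which fell in WT (-0.69 ± 0.23, adjusted p = 0.0456) and was named after its values were seen, was not called in KO (0.53 ± 0.24, adjusted p = 0.0965); the difference of these changes did not pass the threshold (1.22 ± 0.33, adjusted p = 0.177).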

How the data were processed

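Poly(A)-enriched, directional RNA libraries of whole skin were sequenced, per the labels' protocols. Reads were aligned with STAR to GRCm39, per the submitters' processing notes; neither the version nor the annotation is given. The deposited values are raw read counts per gene, unstranded and for each strand, as the layout of the columns shows. The reverse-strand counts, 94.7 to 96.1% of the stranded reads, were used. Summed lines for unmapped reads (10.7 to 19.5% of reads), no feature (7.25 to 10.2%) and ambiguous reads (1.18 to 1.42%) stayed out of library sizes and tests; the line for multimapping reads held 0. 17 value columns of a combined table were not used.

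Names, exon lengths and gene order came from a GENCODE annotation of another build, which gave symbols to 52083 IDs, and promoter sequences from RefSeq (GRCm38.p6). Counts were fitted with edgeR 4.0.16 in R 4.3.3 (quasi-likelihood, robust, TMM factors 0.940 to 1.07, filterByExpr) as 1 model of 4 groups with 5 contrasts. Calls rest on Benjamini-Hochberg adjustment over all 17531 tested genes, at a threshold of 0.05. SE is that implied by the test, and r uses log2 CPM with a prior count of 2. On simulated data for UVB against control in WT (17280 genes in the fit), 86% of 100 genes changed by 2-fold and 99% of 100 changed by 4-fold were recovered. The changed genes had a mean count of at least 50 and were changed in WT UVB only. Recovery therefore does not cover genes of lower counts or the other contrasts. Alternatives used DESeq2 1.42.0, limma 3.58.1 voom, other scalings, filters, strands and sample sets, the replicate number as a block, and each library left out.

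The members and lists were chosen with earlier results of these data known. Named by rule are the members, up to 4 called genes with the smallest adjusted p of each list and contrast (mean count of at least 50), Lynx1, Ly6e, Ly6k, Ly6c2, Psca, Gpihbp1, Plau, Serpinb2, Chrna7 and Chrna9, and the 3 genes most like each member. Other genes were named after their values were seen. One gene that the rule names is not reported here. The check of replicates within groups found no library pair closer than sampling noise (chi-square per degree of freedom 14.9 to 158 over 24 pairs).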

Additional observations from a re-analysis of the deposited data

Results flagged for a closer look

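Pinlyp had UVB differences of opposite direction in the genotypes. The UVB difference in KO minus that in WT was 2.53 ± 0.31 on the log2 scale, and in each genotype all 4 UVB libraries lay on one side of all 4 control libraries. Ly6a had 1 library apart from the others of its group, WT UVB library 1 at 441.5 CPM, where the other 3 lay between 307 and 316 CPM. Plaur had KO UVB library 3 at 26.91 CPM, where the other 3 lay between 7.51 and 8.56 CPM. Chance alone sets apart about 1 in 20 of such groups, and 40 groups of 4 libraries were examined.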

How the results depend on the processing

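Counts of called members did not leave 1.5 times their value under any of the 26 alternatives, except that the interaction could not be fitted on part of the groups. With single libraries left out they were 6 to 7 in WT UVB against control, 7 in KO UVB against control, 1 in KO against WT without UVB, 0 after UVB and 1 for the interaction. Of the members' log2 values, 1276 moved by less than their error and 14 by more, and 0 of the called ones changed sign. The cause of the moves listed next was not tested. Same-numbered libraries did not pair: the r of their deviations ran from -0.403 to 0.219 over 24 pairs, 3 above 0.1, and 5 of 16 libraries were closest to their own number. With the replicate block, genes called were 77 in KO against WT after UVB and 7 for the interaction, and list counts were 1 for plasminogen and 4 for phospholipases A2 in WT UVB and 0 for cholinergic genes in KO against WT after UVB; Pinlyp lost its call in WT.

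In WT UVB against control (3290 genes), limma voom called 5117 genes; voom, no filter and a fit of only the groups compared each called 1 cholinergic gene; library totals left 0 plasminogen genes and a mean count of at least 100 left 2 wider family genes. In KO UVB against control (5666 genes), a fit of only the groups compared called 3506 genes, 3 family, 3 cholinergic and 1 plasminogen gene. A mean count of at least 100 left 3 family, 3 cholinergic and 3 plasminogen genes, unstranded counts left 5 family genes, library totals or no filter left 2 plasminogen genes, and DESeq2 called 8 and voom 10 of these. In KO against WT without UVB (297 genes), DESeq2 called 452 genes, 2 family and 1 cholinergic gene, voom 589 genes and 2 family genes, a mean count of at least 100 left 93 and 0, and library totals gave 1 phospholipase. In KO against WT after UVB (150 genes), DESeq2 called 658 genes, 1 family and 5 plasminogen genes, and voom 1117 genes, 2 family, 4 plasminogen and 2 phospholipase genes. There, no filter gave 1 plasminogen gene and only the groups compared gave 79 genes and 0 cholinergic genes. For the interaction (4 genes), DESeq2 called 210 genes, 2 family and 1 cholinergic gene, and voom 459 genes, 2 family, 1 cholinergic and 1 phospholipase gene. No filter gave 22 genes, 1 family and 1 cholinergic gene, and leaving out KO UVB library 4 with WT UVB library 2 gave 20 genes.

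With single libraries left out, an alternative added for the 4 partner lists after seeing the data, genes called ran from 2039 (without WT control 1) to 3707 in WT UVB against control and from 4280 to 6350 in KO. They ran from 161 (without WT control 2) to 362 in KO against WT without UVB, from 59 (without WT UVB 2) to 487 (without KO UVB 4) after UVB, and from 2 to 110 (without KO UVB 4) for the interaction. Wider family genes ran from 4 to 6 in WT, from 4 (without KO control 3 or KO UVB 1) to 8 in KO, from 1 to 2 and from 0 to 1 between genotypes without and after UVB, and from 0 to 2 for the interaction. Cholinergic genes ran from 0 to 1 in WT, from 4 to 6 in KO, and from 0 to 1 after UVB and for the interaction. Plasminogen genes ran from 0 to 2 in WT, from 1 to 9 in KO and from 0 to 4 after UVB. Phospholipases ran from 4 (without WT control 2 or 4 or WT UVB 4) to 8 in WT, and from 0 to 1 after UVB, and Lypd3 partners from 0 to 1 after UVB (without KO UVB 4). Depth limits Slurp2, Pinlyp and Plaur most, whose lowest libraries held 11, 68 and 103 reads.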
